A study of Rattus norvegicus with 10 samples.

Results

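The genes described here are 10 genes of glucocorticoid signalling measured in rat liver: Nr3c1, Hsd11b1, Fkbp5, Zbtb16, Tsc22d3, Sgk1, Tat, Rasd1, Rasd2 and Myoc. On the arrays 9 of them were found by accession, among 13438 genes named that way, and Rasd1 by a single further probe. Together they had 17 of the 40945 probes with a value on every array. The list was proposed with earlier results of these arrays known, and Zbtb16, Rasd2 and Myoc were on it because their signals had differed between groups. The Rasd1 probe could be named only through a list of changed probes that the study had selected on these same arrays. For these 4 genes the measured values chose the gene or its probe, so their values and standard errors (SE) are given as a description with no test. The other 6 genes were tested. The arrays came from 3 groups of male Wistar rats, and each array held liver RNA of 1 rat taken 24 h after the time of irradiation. The control group (n = 3) was untreated, with 0 Gy. The TBI group (n = 3) had received total-body irradiation of 6.5 Gy from a 60Co source, the dose that the labels of the arrays give. The MASM + TBI group (n = 4) had been given MASM, a derivative of the plant alkaloid matrine, into the stomach at 30 mg/kg a day for 3 days before the same irradiation. No rats given MASM without irradiation were analysed here, so every MASM comparison is between irradiated rats or against untreated ones. The rats arrayed were some of 10 to 12 per group, and 5 of 5 hepatocyte markers were well above background on all arrays.

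Glucocorticoids are steroid hormones of the adrenal cortex that are released in stress and fasting. Inside the cell the hormone binds the glucocorticoid receptor, encoded by Nr3c1, which is held by heat shock protein 90 and immunophilins until it enters the nucleus and switches genes on or off at glucocorticoid response elements. In the liver the hormone is known for raising amino acid breakdown and glucose output. Hsd11b1 remakes active hormone from its inactive form inside hepatocytes, and Fkbp5, itself induced by the receptor, binds the receptor complex and lowers its affinity for the hormone. The same promoters can also answer to insulin, cyclic AMP, the circadian clock and cell stress.

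For Fkbp5 and Rasd2, which read lower after TBI, and for Tsc22d3 and Myoc, which read higher, promoters are shown. They are the 250 bases before the annotated start, from RefSeq on build GRCr8, printed 5′ to 3′ on the strand of the gene, and capitals mark TATAAA, the letters of a TATA box. The Fkbp5 window lies at chr20:6543556-6543805 on the minus strand, and that of Rasd2 at chr19:13599778-13600027 on the plus strand. For Tsc22d3, which has 3 annotated starts, the one with a TATA box is shown, at chrX:109010035-109010284 on the minus strand. The Myoc window lies at chr13:77509713-77509962 on the plus strand.
Fkbp5: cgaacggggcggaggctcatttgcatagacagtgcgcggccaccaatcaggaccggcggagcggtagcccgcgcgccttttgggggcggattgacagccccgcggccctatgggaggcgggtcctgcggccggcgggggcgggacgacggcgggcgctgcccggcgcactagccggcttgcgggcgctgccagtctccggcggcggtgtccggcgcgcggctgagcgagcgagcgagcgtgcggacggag
Rasd2: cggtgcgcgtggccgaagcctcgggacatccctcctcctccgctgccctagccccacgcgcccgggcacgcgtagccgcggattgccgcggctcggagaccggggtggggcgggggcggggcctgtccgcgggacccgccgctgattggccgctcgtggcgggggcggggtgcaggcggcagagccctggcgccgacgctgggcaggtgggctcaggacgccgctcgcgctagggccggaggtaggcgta
Tsc22d3: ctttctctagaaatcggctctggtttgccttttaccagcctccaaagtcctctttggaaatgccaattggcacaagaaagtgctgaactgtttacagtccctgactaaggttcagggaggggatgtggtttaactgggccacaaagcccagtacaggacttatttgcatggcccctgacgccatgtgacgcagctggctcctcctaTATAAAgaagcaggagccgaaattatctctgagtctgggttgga
Myoc: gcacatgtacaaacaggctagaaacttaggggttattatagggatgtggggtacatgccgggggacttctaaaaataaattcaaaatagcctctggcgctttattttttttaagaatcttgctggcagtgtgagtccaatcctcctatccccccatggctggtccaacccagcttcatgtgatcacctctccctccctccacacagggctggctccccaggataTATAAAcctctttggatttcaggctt
The Fkbp5 and Rasd2 windows were rich in G and C, with a G + C content of 76% and 78.4% against a median of 51.2% over 33469 windows of the same length, and held no TATAAA on the printed strand. Tsc22d3 and Myoc had a G + C content of 49.2% and 47.2% and held TATAAA once each, 39 and 21 bases before the start. The 2 other Tsc22d3 windows held none, at a G + C content of 50% and 74.4%, and neither did those of Rasd1 (64%) and Tat (54%). Windows of Nr3c1 held none either, at a G + C content of 64% and 78.4%. The Sgk1 windows with TATAAA had 39.2% and 69.6%, and the Sgk1 window without it 49.6%. TATAAA was present on the printed strand in 8.06% of all windows and in 4 of the 13 windows of these genes, which belong to Tsc22d3, Myoc and, with 2 windows, Sgk1. The half-site of the glucocorticoid response element, AGAACA on either strand, was in 17.5% of all windows and in none of the 13 windows, which belong to 8 genes (Zbtb16 and Hsd11b1 had no window). A pair of half-sites facing each other across 3 bases, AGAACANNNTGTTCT, occurred in 4 of all windows. The TATAAA letters overlap neither. These counts describe a short window only, and a gene with no match can hold the element elsewhere.

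All values below are log2 signals after quantile normalization, so a difference of 1 is a doubling. A gene was called changed at an adjusted p under 0.05 in limma, with the Benjamini-Hochberg adjustment over all probes, and a fold change of at least 1.5, using its brightest probe. With 3 or 4 rats a group, precision is limited by their number. Slides and groups did not separate well: 3 controls and MASM + TBI rat 3 shared a slide, all TBI rats were on another, and the remaining MASM + TBI rats were on the last. TBI and slide therefore cannot be told apart, and MASM + TBI against TBI also compares rats on different slides. More spots were well above background on the TBI arrays (64.1% to 70.1%) than on the control (57.2% to 59.9%) and MASM + TBI arrays (56.2% to 60.2%). In bulk tissue, fewer cells of a type and less RNA per cell cannot be told apart either.

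After TBI, 3 of the 6 tested genes passed the test against control: Sgk1 and Tsc22d3 rose and Fkbp5 fell. At the same thresholds 4.5% of all probes were called, and without the adjustment, at an unadjusted p under 0.05, 4 of the 6 genes and 12.6% of all probes. Genes that the hormone is known to induce thus stood on both sides of 0. The median difference over the 6 tested genes was 0.40 and over all probes -0.03. The calls rest on few rats. Without control rat 1, 2 or 3, none of the 3 genes passed, with an adjusted p in limma of 0.0698 to 0.108 for Fkbp5, 0.059 to 0.0988 for Tsc22d3 and 0.052 to 0.0638 for Sgk1. Without TBI rat 2, or without MASM + TBI rat 2, only Sgk1 passed. Tsc22d3 also failed without TBI rat 1 or 3 (adjusted p = 0.0697 and 0.0619 in limma). Fkbp5 also failed without MASM + TBI rat 1 (adjusted p = 0.0559 in limma).

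**Figure D1:**
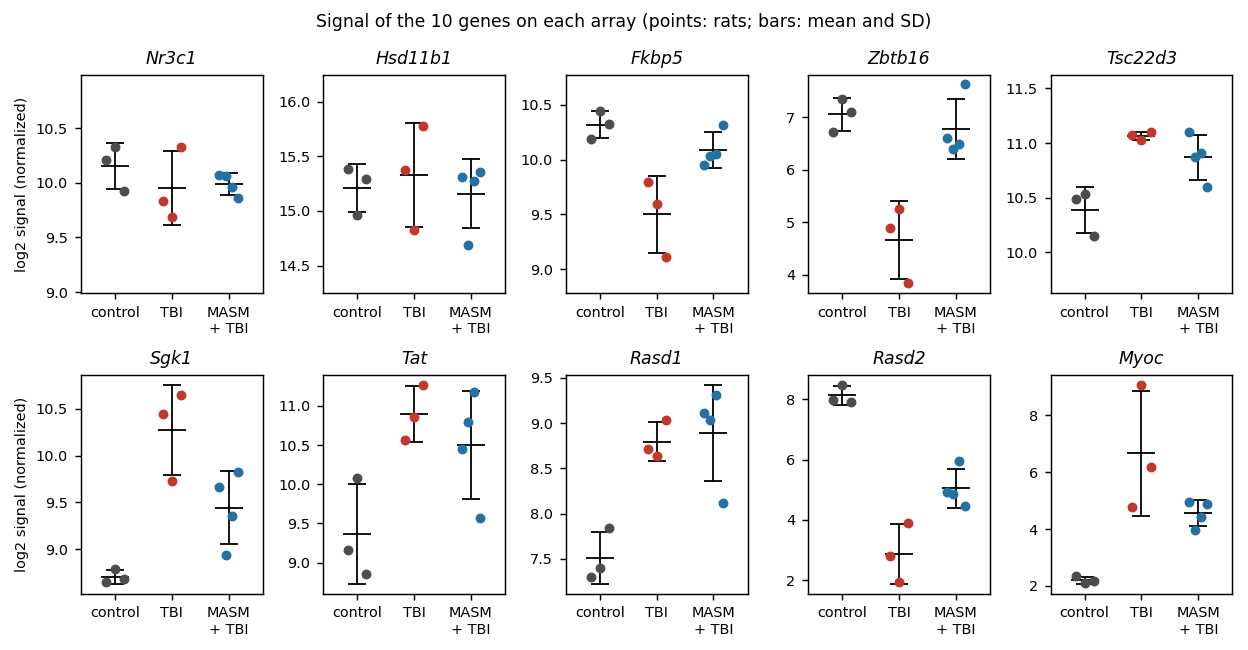
Log2 signal (vertical axis, normalized; each panel has its own scale) of the brightest probe of the 10 genes in 3 control, 3 TBI and 4 MASM + TBI rats. Points are rats and bars the mean and SD. Zbtb16 and Fkbp5 are lowest in TBI rats, Sgk1 and Tsc22d3 are lowest in control rats, and Hsd11b1 overlaps in all groups.

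On their brightest probes neither the receptor nor the enzyme that supplies it with hormone passed the test in any comparison. Nr3c1 was at 10.21, 10.33 and 9.92 in control, 9.83, 9.69 and 10.33 in TBI, and 10.07, 10.06, 9.96 and 9.86 in MASM + TBI rats. The groups overlapped. The difference between TBI and control was -0.21 (SE 0.17), with a 95% interval of -0.61 to 0.19 and an adjusted p of 0.514 in limma. A dimmer Nr3c1 probe read lower in TBI than in control rats without overlap, with a difference of -0.53 and an adjusted p of 0.072 in limma, and here too the test was not passed. That probe differed by 0.40 between MASM + TBI and TBI, without overlap (adjusted p = 0.189 in limma). Between MASM + TBI and control it differed by -0.13, with overlap. Hsd11b1 was among the brightest signals. It read 15.38, 14.96 and 15.29 in control, 15.37, 14.83 and 15.78 in TBI, and 15.31, 14.69, 15.27 and 15.36 in MASM + TBI rats. These groups overlapped fully, and the TBI difference of 0.12 (SE 0.27) had a 95% interval of -0.49 to 0.73. The second Hsd11b1 probe gave 0.03.

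Fkbp5 and Zbtb16 shared a pattern of low signal after TBI and a signal near control in MASM + TBI rats. Fkbp5 was at 10.19, 10.44 and 10.33 in control, 9.80, 9.59 and 9.11 in TBI, and 9.95, 10.03, 10.05 and 10.32 in MASM + TBI rats. All TBI rats lay below all others. Fkbp5 fell by 0.82 (SE 0.18) after TBI, a 1.77-fold decrease, with an adjusted p of 0.037 in limma. Its 2 dimmer probes gave -0.53 and -0.52, with adjusted p of 0.173 and 0.113 in limma, and the mean of the 3 probes no longer passed (adjusted p = 0.0696). Between MASM + TBI and control the brightest Fkbp5 probe differed by -0.24 (adjusted p = 0.558 in limma, 95% interval -0.62 to 0.15). Between MASM + TBI and TBI it differed by 0.59 (SE 0.17), a 1.5-fold higher mean, and did not pass (adjusted p = 0.136 in limma).

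Zbtb16 encodes PLZF, a zinc finger transcription factor that glucocorticoids induce in many tissues. It read 6.72, 7.35 and 7.09 in control, 4.89, 5.25 and 3.83 in TBI, and 6.60, 6.40, 6.49 and 7.62 in MASM + TBI rats. The TBI rats stood apart from both other groups, which overlapped each other. The mean was 5.27-fold lower in TBI than in control rats, a log2 difference of -2.40 (SE 0.43). It was 4.36-fold higher in MASM + TBI than in TBI rats, a log2 difference of 2.12 (SE 0.40), and against control MASM + TBI rats differed by -0.27 (SE 0.40). A second Zbtb16 probe, well above background on all arrays, had the same order, with -1.52 for TBI against control and 1.29 for MASM + TBI against TBI. With another background correction, normexp, the TBI difference of the first probe was -0.88 and that between MASM + TBI and TBI 0.74.

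Over the 10 arrays Fkbp5 had the highest Pearson r with Zbtb16 among 9579 genes, 0.954, with a Spearman rho of 0.915. The points share their group, slide and normalization, so this is a description of 10 arrays in 3 groups. Without TBI rats 1 and 3, the arrays farthest from the Zbtb16 median, r was 0.948 over 8 arrays, and over the 7 control and MASM + TBI arrays it was 0.863. The next genes by r were Rfc4, Slc35a2, Kcnh1 and Rab33b (0.927 to 0.94), and by Spearman rho Kcnh1, at 0.952, stood above Fkbp5. Kcnh1 for example averaged 7.59 in control, 6.33 in TBI and 7.30 in MASM + TBI rats.

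**Figure D2:**
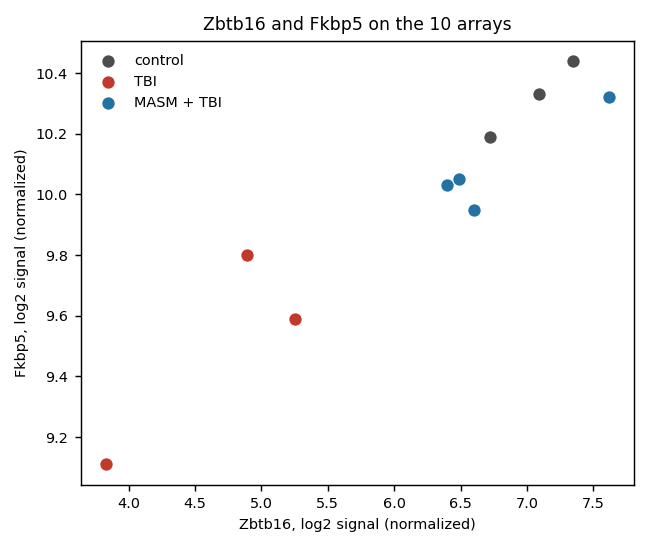
Log2 signal (normalized) of Zbtb16 on the horizontal and Fkbp5 on the vertical axis, 1 point per array, coloured by group. The 3 TBI arrays lie at the lower left, with Zbtb16 at 3.83 to 5.25, and the MASM + TBI arrays lie near the control arrays at the upper right.

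Tsc22d3 and Sgk1, also induced by glucocorticoids, ran the other way. Tsc22d3 encodes GILZ, a mediator of anti-inflammatory effects of the hormone. Its signal was 10.49, 10.53 and 10.15 in control, 11.07, 11.03 and 11.10 in TBI, and 11.10, 10.87, 10.91 and 10.60 in MASM + TBI rats. Both irradiated groups lay wholly above control. Tsc22d3 rose by 0.68 (SE 0.14) after TBI, 1.60-fold, with an adjusted p of 0.0343 in limma. Under normexp the difference, 0.58, was below the fold threshold. The dimmer Tsc22d3 probe rose by 1.09 and was called too, with an adjusted p of 0.0113 in limma. MASM + TBI rats differed from control by 0.48 and 0.60 on the 2 probes, with adjusted p of 0.105 and 0.0927 in limma, and from TBI rats by -0.20 and -0.49 (adjusted p = 0.505 and 0.172).

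Sgk1 encodes a serine/threonine kinase that controls ion channels and cell survival. It read 8.65, 8.79 and 8.68 in control, 10.44, 9.73 and 10.65 in TBI, and 9.66, 8.94, 9.36 and 9.82 in MASM + TBI rats. Controls were tightly grouped below all irradiated rats, and the irradiated groups overlapped. Sgk1 rose by 1.57 (SE 0.28) after TBI, 2.96-fold, with an adjusted p of 0.0188 in limma. The MASM + TBI mean was between those of the other groups, 0.74 above control (adjusted p = 0.188 in limma) and 0.83 below TBI on the log2 scale (95% interval of the difference -1.42 to -0.24, adjusted p = 0.161 in limma).

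Tat encodes tyrosine aminotransferase, the classic hepatic target of glucocorticoids and a step of tyrosine breakdown. It read 9.16, 10.08 and 8.86 in control, 10.56, 10.86 and 11.27 in TBI, and 10.45, 10.80, 11.18 and 9.57 in MASM + TBI rats. TBI and control rats did not overlap, but the controls were spread over more than 1 unit. The TBI difference of 1.53 (SE 0.45), 2.89-fold, did not pass (adjusted p = 0.0885 in limma). It passed with arrays scaled to the 75th percentile (adjusted p = 0.0434) and with slide as a random block (adjusted p = 0.0324), settings in which 17% and 9.96% of all probes were called, and a slide block cannot take the slide out of the TBI difference. MASM + TBI rats overlapped both groups, at 1.13 above control (adjusted p = 0.211 in limma).

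The remaining genes are described without a test. Rasd1 (Dexras1) encodes a Ras-like GTPase named for its induction by dexamethasone, a synthetic glucocorticoid. It was at 7.30, 7.40 and 7.84 in control, 8.71, 8.64 and 9.04 in TBI, and 9.11, 9.04, 9.31 and 8.12 in MASM + TBI rats. All irradiated rats were above all controls. The differences from control were 1.29 (SE 0.30) in TBI and 1.38 (SE 0.28) in MASM + TBI rats, and the irradiated groups differed by 0.10 (95% interval -0.54 to 0.74). Under normexp the differences from control were 0.85 and 0.94.

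Rasd2 (Rhes), a related GTPase best known from the striatum, had far lower signals in irradiated rats. It was at 7.99, 8.48 and 7.91 in control, 2.79, 1.93 and 3.89 in TBI, and 4.92, 4.87, 5.94 and 4.45 in MASM + TBI rats. The 3 groups did not overlap. In TBI rats 1 of 3 arrays was well above background, so the mean there is close to the limit of measurement and the size of a difference from it is uncertain. The log2 differences were -5.26 (SE 0.52) for TBI against control, -3.08 (SE 0.48) for MASM + TBI against control and 2.18 (SE 0.48) for MASM + TBI against TBI. A second Rasd2 probe, well above background on 3 of 10 arrays, ranged from 3.19 to 4.5 and gave -0.36, -0.11 and 0.25. It was well above background on 1 of 3 control, 2 of 3 TBI and 0 of 4 MASM + TBI arrays. Why the 2 probes differ was not tested. Under normexp the bright probe gave -1.69 for TBI against control, -1.35 for MASM + TBI against control and 0.34 for MASM + TBI against TBI. The mean of both probes gave -2.81, -1.60 and 1.21.

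Myoc encodes myocilin, a secreted glycoprotein of the eye whose mutations cause glaucoma and which glucocorticoids induce in trabecular meshwork cells. In control rats it read 2.34, 2.09 and 2.18, and none of the 3 arrays was well above background. TBI rats read 4.77, 9.08 and 6.17, all well above background and more spread than those of any other gene on the list (SD 2.20). MASM + TBI rats read 4.97, 3.97, 4.42 and 4.89, with 2 of 4 arrays well above background. Against control the signal was higher by at least 6.91-fold in TBI and at least 1.60-fold in MASM + TBI rats. For these bounds, which hold for the quantile normalized signals only, the calculation set the mean of the brighter group against the higher of the probe's own signal and the lowest signal well above background on each control array. Without TBI rat 2 the TBI bound was 3-fold. The irradiated groups overlapped, and their difference of -2.11 (SE 0.85) was -0.91 without TBI rat 2. The TBI difference from control, 4.47 as measured, was 3.27 without that rat and 1.12 under normexp, and the MASM + TBI difference from control, 2.36 as measured, was 0.22 under normexp.

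The genes most like Myoc over the 10 arrays were Slc39a6, a zinc transporter, Slc6a20a, Gstm3, Pltp and Smox, with a Pearson r of 0.93 to 0.949. These genes were picked for this likeness, so their group means are a description only. Slc39a6 averaged 7.53 in control, 8.65 in TBI and 7.96 in MASM + TBI rats. Without TBI rat 2 the r values were 0.824 to 0.913 over 9 arrays. Myoc was well above background on 5 of 10 arrays. Slc6a20a averaged 3.60 in control rats, where signals well above background began at 3.71 to 4. Part of the likeness therefore rests on signals near background.

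**Figure D3:**
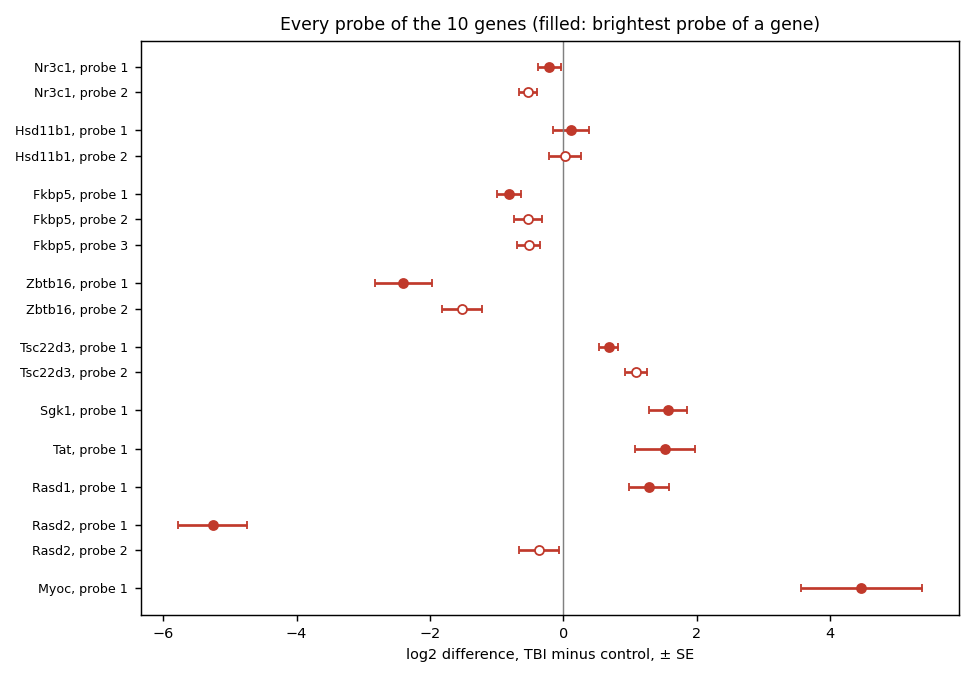
Log2 difference between TBI and control (horizontal axis, with SE bars) of all 17 probes of the 10 genes. Filled points are the brightest probe of a gene. Probes of Zbtb16, Fkbp5, Tsc22d3, Nr3c1 and Hsd11b1 stand on one side of 0 within each gene. The 2 Rasd2 probes, of which the second was near background, stand at -5.26 and -0.36.

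None of the 6 tested genes passed the test between MASM + TBI and control in limma, where 2.35% of all probes were called. At an unadjusted p under 0.05 and a fold change of at least 1.5 there were 2, Sgk1 and Tat, beside 8.06% of all probes, while Tsc22d3 had an unadjusted p of 0.00668 in limma below that fold. Between MASM + TBI and TBI none passed either, against 1.39% of all probes, and the unadjusted count was 2, Fkbp5 and Sgk1, beside 7.98%. The methods' t-test at its own unadjusted threshold gave 4 of the 6 genes for TBI against control (7.08% of all probes), 1 for MASM + TBI against control (5.75%) and 0 for MASM + TBI against TBI (4.03%). After adjustment it gave none, with 10, 28 and 3 of all probes. With slide as a random block Fkbp5 passed between MASM + TBI and TBI (adjusted p = 0.0478 in limma), where 3.42% of all probes were called. No MASM + TBI rat shared a slide with a TBI rat, so a slide block cannot take the slide out of this difference. On the slide that held controls and MASM + TBI rat 3, that rat differed from the control mean by -0.56 for Zbtb16, 0.52 for Tsc22d3, 0.65 for Sgk1, 1.82 for Tat, 1.80 for Rasd1, -2.18 for Rasd2 and 2.22 for Myoc. It differed by -0.27 for Fkbp5, -0.19 for Nr3c1 and 0.06 for Hsd11b1. These values rest on 1 rat and carry no test.

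**Figure D4:**
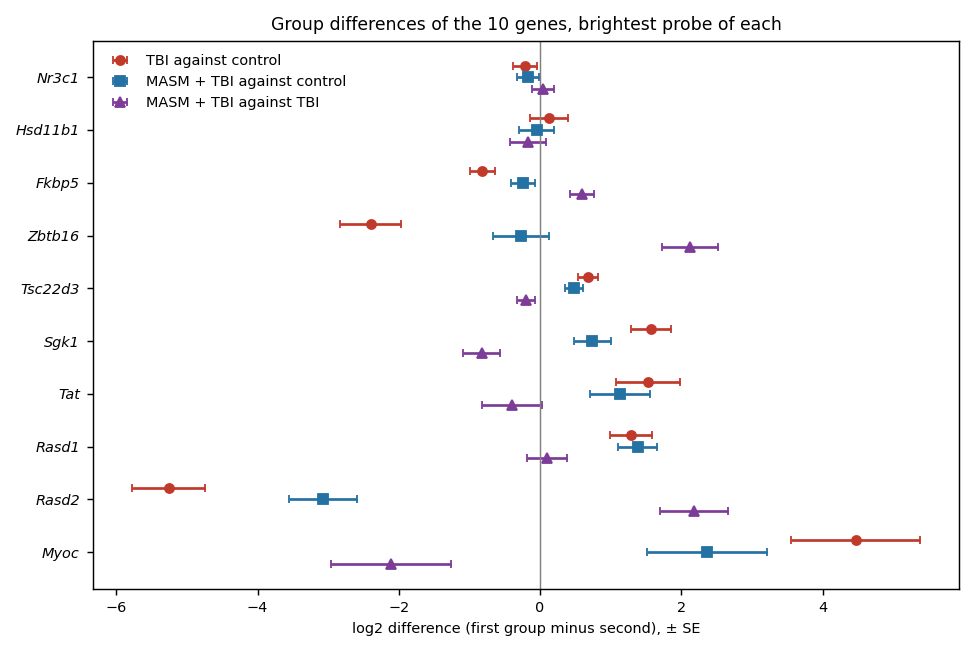
Log2 differences (horizontal axis, first group minus second, with SE bars) of the 10 genes in the 3 comparisons, which share groups. For Zbtb16 the MASM + TBI difference from control lies at -0.27 and that from TBI at 2.12. For Rasd1 it is 1.38 from control and 0.10 from TBI.

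The 4 MASM + TBI rats did not move as one. Rat 4 had the highest Zbtb16 (7.62) and Fkbp5 (10.32) of its group and the lowest Tsc22d3 (10.60), Tat (9.57), Rasd1 (8.12) and Rasd2 (4.45). For 4 of the 10 genes it was the rat nearest to the control mean, and each of the other rats was so for 2 genes. Without it the MASM + TBI difference from control was -0.55 for Zbtb16 and 1.64 for Rasd1. It was not nearest to control throughout, since its Sgk1 (9.82) was the highest of the 4.

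The wider pathway was read from 48 further genes, of which 45 had a probe. After TBI 1 of them rose and 3 fell, 8.89% of the 45, against 4.5% of all probes. Without the adjustment there were 13, or 28.9%, against 12.6% of all probes. With dim probes left out, 5 passed the adjusted test, against 7.64% of the probes kept. Among 20 further genes that the receptor induces, Usp2 fell. Usp2 encodes a deubiquitinase with a daily rhythm in liver, and it was at 9.98, 10.32 and 10.21 in control, 7.89, 8.97 and 8.85 in TBI, and 9.56, 9.40, 10.06 and 9.25 in MASM + TBI rats. It fell by 1.60 after TBI (adjusted p = 0.0244 in limma), and all TBI rats were below all others. None of 13 genes of hepatic amino acid and glucose metabolism, such as Pck1, G6pc1 and Tdo2, passed in limma. Their median difference was 0.06.

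Of 12 measured genes of hormone handling and receptor machinery, 1 rose and 2 fell after TBI. Serpina6, which encodes the corticosteroid-binding globulin of plasma, was at 12.87, 13.31 and 12.95 in control, 11.39, 12.11 and 12.11 in TBI, and 12.22, 12.03, 12.35 and 12.19 in MASM + TBI rats. It fell by 1.17 after TBI (adjusted p = 0.0191 in limma), and in MASM + TBI rats it was -0.84 from control (adjusted p = 0.061). Hsd11b2, whose product inactivates the hormone, was at 8.26, 8.61 and 7.92 in control and 6.89, 6.77 and 6.89 in TBI rats and fell by 1.41 (adjusted p = 0.0252 in limma). MASM + TBI rats had 6.85, 7.94, 7.38 and 7.10, of which 7.94 overlapped control, and differed from it by -0.95 (adjusted p = 0.0962 in limma). Hsp90aa1, the inducible heat shock protein 90 that holds the receptor ready, was at 13.84, 13.83 and 13.99 in control, 14.53, 14.73 and 14.60 in TBI, and 14.47, 14.82, 14.75 and 14.94 in MASM + TBI rats. It rose by 0.73 after TBI and by 0.86 in MASM + TBI rats against control, with adjusted p of 0.0166 and 0.00892 in limma. With slide as a fixed block the second of these did not pass (adjusted p = 0.102).

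Hsp90aa1 was the only one of the 45 genes called between MASM + TBI and control, 2.22% against 2.35% of all probes. Of the 45, 8 (17.8%, against 8.06%) had an unadjusted p under 0.05 with the fold threshold. With dim probes left out, 2 passed the adjusted test in this comparison, against 4.83% of the probes kept. Between MASM + TBI and TBI limma called 0 of the 45, against 1.39% of all probes, with 6 at the unadjusted threshold (13.3%, against 7.98%) and 0 in the methods' t-test, adjusted or not. The widest differences after TBI did not pass. They were Bcl6, a transcriptional repressor (-2.59, adjusted p = 0.0962 in limma), Igfbp1, an insulin-like growth factor binding protein (2.59, adjusted p = 0.167), and Pdk4, a brake on glucose oxidation (2.03, adjusted p = 0.0793). These 3 were chosen after their values were seen. Without control rat 2, none of the 45 genes was called after TBI, and without control rat 1 or 3 the calls were 1 and 2. With arrays scaled to the 75th percentile there were 7, but 17% of all probes were then called.

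**Figure D5:**
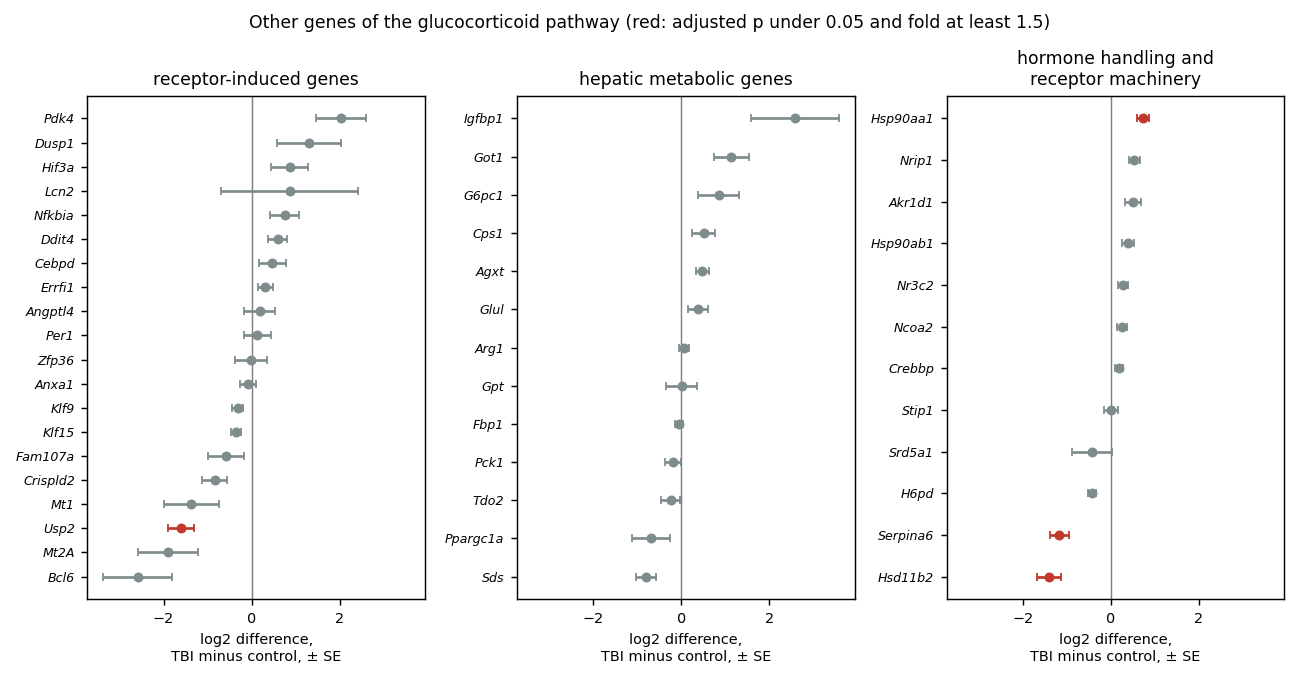
Log2 difference between TBI and control (horizontal axis, with SE bars) of the 45 measured genes in 3 lists. Red points passed an adjusted p under 0.05 and a fold change of at least 1.5, and the receptor-induced genes spread from -2.59 to 2.03.

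Single markers of T cells, B cells and stellate cells differed from control as well, and none of the Kupffer, endothelial, bile duct, neutrophil or adipocyte markers passed in any comparison in limma. The mean over 5 T cell markers was 5.21 to 5.66 in control, 3.86 to 4.58 in TBI and 4.14 to 4.69 in MASM + TBI rats, and 3 of the 5 were well above background on all TBI arrays and 2 on none. Cd3e was so on no array. Cd2, well above background on all control arrays and on no TBI array, was called lower after TBI with an adjusted p of 0.00622 in limma. In MASM + TBI rats Cd2 was well above background on 2 of 4 arrays and at least 1.67-fold higher than in TBI rats, without overlap, and this did not pass (adjusted p = 0.0736). After TBI Cd3d (-0.78) and Cd8a (-0.90) overlapped control and did not pass, and Lck stood at 0.55 above control (adjusted p = 0.349). In MASM + TBI rats Cd8a was -1.76 from control (adjusted p = 0.0894 in limma) and Cd3d -0.65 (adjusted p = 0.361), both without overlap. Lck was 0.36 above control there. B cell markers, measured by 2 of 4 genes, averaged 3.27 to 4.05 in control and 1.84 to 2.28 in irradiated rats, with neither well above background on any irradiated array. Zbtb16 and Tsc22d3 are also expressed in lymphocytes, and the part of these cells in their values was not tested. Of 3 stellate cell markers Lrat fell, by 0.62 after TBI and by 0.60 in MASM + TBI rats against control (adjusted p = 0.0116 and 0.0147 in limma). The median difference of 6 Kupffer cell markers between MASM + TBI and TBI was -0.70, with none called. The part of these cells was not tested either. Hepatocyte markers averaged 17.46 to 17.71 on all arrays.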

How the data were processed

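Cy3-labelled liver RNA from 3 control, 3 TBI and 4 MASM + TBI rats had been hybridised to Agilent arrays, 1 for each rat. The authors deposited the background-subtracted intensity of each spot from Feature Extraction 10.7.3.1, in linear units and not yet normalized across arrays. Their second, processed value list of the series held identical intensities (largest difference 0).

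Control spots (1639 per array) and outlier spots were left out. The deposited intensities were put on the log2 scale and quantile normalized, and spots of a probe were averaged. Of 41012 probes, 16968 obtained a symbol by accession from the RefSeq gene list, and 40945 had a value on every array. Differences came from limma 3.58.1 (R 4.3.3, with data.table version 1.17.8), with a mean for each group over all 10 arrays, and plotted with matplotlib 3.10.9 in Python 3.11.15. The gene's brightest probe over all arrays was used. The model was tested on simulated data with known changes.

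The genes and lists were chosen with earlier results of these data known. Rasd1 had been planned as a tested gene and was set aside once its probe proved to be named only through the study's list of changed probes, which leaves 6 tested genes. Named genes are the 10 genes with all their probes, the further pathway genes called in at least 1 comparison, and the 5 genes most like Zbtb16 and Myoc by Pearson r, among genes well above background on all arrays of a group. Cell type markers and a few pathway genes outside this rule (Bcl6, Igfbp1, Pdk4, Pck1, G6pc1, Tdo2) are named as examples, the first 3 after their values were seen. The arrays are separate rats, and group, number and dose came from the labels. The paper gives the dose of these rats as 6 Gy. Alternatives tried were 75th percentile scaling, normexp (offset 50), the authors' processed values, no dim probes, 2 groups per model, a trended and robust prior, the methods' t-test, slide or replicate number as a block, the mean of a gene's probes, and omission of each rat. Normexp used median pixel intensities, since the deposited files used here hold no mean ones. Columns of the study's own comparisons were not used. Positions of probes are not given, as the arrays and the gene list rest on different builds.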

Additional observations from a re-analysis of the deposited data

Results flagged for a closer look

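Among the 4 MASM + TBI rats, 1 rat stood apart for 2 of the genes. For Zbtb16 it was rat 4, at 7.62 against 6.60 in the nearest rat, and this gap was 0.837 of the range of the group. For Hsd11b1 it was rat 2, at 14.69 against 15.27, a gap of 0.867 of the range. Chance gives such a gap in about 1 in 20 groups, and 10 genes were searched in this group. The second probes of the genes ranked the same rats highest and lowest (Zbtb16 at 5.58 in rat 4, Hsd11b1 at 13.56 in rat 2). Without rat 4 the Zbtb16 difference between MASM + TBI and control was -0.55.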

How the results depend on the processing

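Of 8 results that passed the test (adjusted p and fold), 113 of 161 values under the alternatives kept the call and 48 lost it. Of 22 that did not pass, 428 of 449 values stayed so with the same sign, 12 gained a call and 9 changed sign. Of the values without a test 231 moved by less than the spread between rats and 13 by more. The genes called after TBI, 3 of 6, numbered 0 with 2 groups per model and in the methods' t-test, 1 with the replicate block, 2 under normexp and with the mean of all probes, 4 with the 75th percentile and with slide as a random block, and 0 to 3 with a rat left out. The further genes called after TBI, 4 of 45, numbered 7 with 75th percentile scaling, 2 with 2 groups per model, 0 in the t-test, 9 with slide as a random block, and 0 to 6 with a rat left out. For MASM + TBI against control, 1 of 45, the count was 2 under normexp, without dim probes, with 2 groups per model and with the trended and robust prior, 0 in the t-test, with the replicate block and with slide as a fixed block, 4 with slide as a random block, and 1 to 2 with a rat left out. For MASM + TBI against TBI the random slide block called 1 of the 6 genes and 1 of the 45, the 75th percentile 1 of the 45, and rats left out 0 to 1 of the 45. Numbers did not pair the rats (correlations of deviations -0.13 to 0.17), and with the replicate block Fkbp5 (adjusted p = 0.0854) and Tsc22d3 (0.0593) lost the call in limma as did Hsd11b2 (0.0603) and Serpina6 (0.0569), while Sgk1 kept it. Signs changed only for values near 0, and with a rat left out Hsd11b1 ranged from -0.11 to 0.37 (TBI against control), -0.18 to 0.10 (MASM + TBI against control) and -0.42 to 0.06 (MASM + TBI against TBI), and Nr3c1 from -0.09 to 0.23 in the last comparison. Hsd11b1 in MASM + TBI against control became 0.09 with the 75th percentile, 0.06 with slide as a fixed block, and 0.03 and 0.10 without control rat 1 and MASM + TBI rat 2. Its TBI difference became -0.01 and -0.11 without control rat 2 and TBI rat 3, and its MASM + TBI against TBI difference 0.06 without TBI rat 3. Nr3c1 in MASM + TBI against TBI became -0.02 and -0.09 without TBI rats 1 and 2. Over all probes the 1842 called after TBI numbered 6950 with the 75th percentile, 553 under normexp and 10 in the t-test. The cause was not tested. Signal over background limits Myoc, well above it on 5 of 10 arrays, and Rasd2, on 8 of 10.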
